A study of Mus musculus with 6 samples.

Results

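Neural stem cells labelled homozygous for Ecrg4, whose Ecrg4 probe read at background, were compared with all Ecrg4-expressing cultures of the same series as a single group. One side held the 2 arrays labelled homozygous and the other held 4 arrays, 2 labelled wild type and 2 labelled heterozygous. Pooling in this way makes the comparison independent of the order of the wild-type and heterozygous labels, which matters because the Ecrg4 probe itself did not follow the number of intact alleles. The members are the microarray probes whose homozygous values both lay above, or both lay below, every one of the other 4 arrays. There were 6015 of them among 20434 probes measured on every array, and they stood for 4472 of 14545 named genes. Cells of every genotype came from C57BL6 mouse brain at postnatal day 0 and grew untreated in DMEM/F12 medium with bFGF, EGF and heparin. The sources used here do not say what kind of allele was made, and they do not say whether the replicates are separate mice or cultures, nor the sex of the mice. A p-value below therefore reflects the spread of these arrays alone, and that spread may be technical.

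Ecrg4 encodes a small secreted precursor protein, which is cut into peptides and is abundant in choroid plexus. Neural stem cells divide under bFGF and EGF, keep radial glial genes on, and can give rise to neurons, astrocytes and oligodendrocytes. The comparison addresses what else differs in such cells when the Ecrg4 probe reads at background.

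Each array gave 1 intensity per probe on a linear scale, with a median of 30 over its measured probes. Of 23466 probes, between 21740 and 22561 were measured per array. The 95th percentile of 663 olfactory receptor probes, genes not expected in these cells, served as the level of a dim probe. It lay between 50.5 and 57.6 on the 6 arrays, and 40.1% to 42.4% of measured probes exceeded it. Across tested probes the homozygous pair correlated at r = 0.994, the heterozygous pair at 0.993 and the wild-type pair at 0.989, with wild-type array 1 the farthest from the rest (0.980 to 0.983). Of 16 measured markers of neural stem cells and radial glia, 13 exceeded the olfactory level on all 6 arrays. So did 12 of 18 measured astrocyte markers, so these counts do not by themselves tell the cell types apart. The summed level of the stem cell list was 66933 to 70507 on the pooled arrays. On the homozygous arrays it was 73338 and 73522, and most of the sum came from Fabp7 and Vim.

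Ecrg4 gave the clearest separation of any named gene. Its probe read 1.4 and 1.3 on the homozygous arrays, against 112.9 and 154.9 in wild type and 345.5 and 373.9 in heterozygous. The ranges did not overlap, and the lowest pooled array stood 6.33 log2 units above the higher homozygous one. The log2 difference was -7.34 ± 0.50 (standard error, limma adjusted p = 0.00574, 2 arrays against 4). A homozygous reading of that size is a background reading, so the fold is better given as a bound: with the homozygous arrays set at the olfactory level, Ecrg4 was at least 4.05-fold lower. The homozygous label was therefore borne out by the probe, while the heterozygous arrays stood 1.44 log2 units above the wild-type arrays. The sources used here do not give the stretch of transcript that the probe covers. With a pseudocount of 50 the difference was -2.41 and missed the threshold (adjusted p = 0.0558).

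The stretch of 250 bases just upstream of the annotated start is shown for 4 of the genes with a sequence available. They are the altered gene itself and a pair of genes of the annexin A2 and S100 group that fell in the homozygous arrays. The last is the lactate exporter gene with the lowest difference of the glycolysis list, which did not pass limma's test. The sequences are those of RefSeq on build GRCm38.p6, read 5′ to 3′ on the strand of the gene, with capitals marking motifs found in the window on either strand.
Ecrg4, chr1:43730352-43730601, plus strand: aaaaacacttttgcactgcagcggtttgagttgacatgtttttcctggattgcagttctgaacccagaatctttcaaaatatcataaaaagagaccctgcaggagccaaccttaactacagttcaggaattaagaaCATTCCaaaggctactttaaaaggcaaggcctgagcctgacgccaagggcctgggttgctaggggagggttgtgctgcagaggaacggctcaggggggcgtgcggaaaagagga
Anxa2, chr9:69453433-69453682, plus strand: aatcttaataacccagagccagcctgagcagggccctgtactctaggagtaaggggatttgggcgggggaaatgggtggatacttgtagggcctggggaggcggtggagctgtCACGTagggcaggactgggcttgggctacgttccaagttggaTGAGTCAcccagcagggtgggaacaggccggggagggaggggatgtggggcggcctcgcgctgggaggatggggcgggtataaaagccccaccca
S100a11, chr3:93520246-93520495, plus strand: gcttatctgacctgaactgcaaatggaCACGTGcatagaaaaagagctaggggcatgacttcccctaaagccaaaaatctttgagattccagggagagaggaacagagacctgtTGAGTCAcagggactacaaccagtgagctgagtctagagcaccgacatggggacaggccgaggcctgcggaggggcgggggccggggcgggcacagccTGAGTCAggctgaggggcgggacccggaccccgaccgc
Slc16a3, chr11:120948817-120949066, plus strand: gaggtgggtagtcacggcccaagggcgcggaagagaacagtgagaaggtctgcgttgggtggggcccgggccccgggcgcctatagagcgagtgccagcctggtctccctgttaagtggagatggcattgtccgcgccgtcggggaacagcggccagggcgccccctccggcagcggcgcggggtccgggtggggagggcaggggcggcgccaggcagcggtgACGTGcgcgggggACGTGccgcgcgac
The motifs searched on both strands were the AP-1 site TGANTCA, the hypoxia response core ACGTG, the TEAD site GGAATG and the interferon response element. ACGTG overlaps itself across the strands in CACGTG, as in the S100a11 window. The Ecrg4 window held GGAATG, the Anxa2 and S100a11 windows held TGANTCA and ACGTG, and the Slc16a3 window held ACGTG. Among 11650 tested genes with a window, 6.47% held TGANTCA, 22.7% ACGTG, 13% GGAATG and 3.1% the interferon response element. A match is a string of letters and not a site of binding.

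By limma's moderated test, 117 probes changed, which is 0.573% of those tested: 51 rose (0.25%) and 66 fell (0.323%) in the homozygous arrays. They covered 34 named genes that rose and 53 that fell, and 30 further probes have no gene name here. Their smallest change was 1.92-fold and their median 2.84-fold, and 27 exceeded 4-fold. All 117 also lay outside the range of the other arrays, which the same values make likely, so the range is no second line of evidence for them. Some 41 of them exceeded the olfactory level on all 6 arrays, 45 on some and 31 on none, and the fold of a probe that is dim on every array cannot be told from its background. Without homozygous array 1 or 2, 1 array stands alone against 4, and the Ecrg4 difference was -7.39 or -7.28. The count without either is given with the other settings below. The count of changed probes was 17 without heterozygous array 1, 33 without heterozygous array 2 and 22 without wild-type array 2. It rose to 343 when wild-type array 1 was left out.

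**Figure D1:**
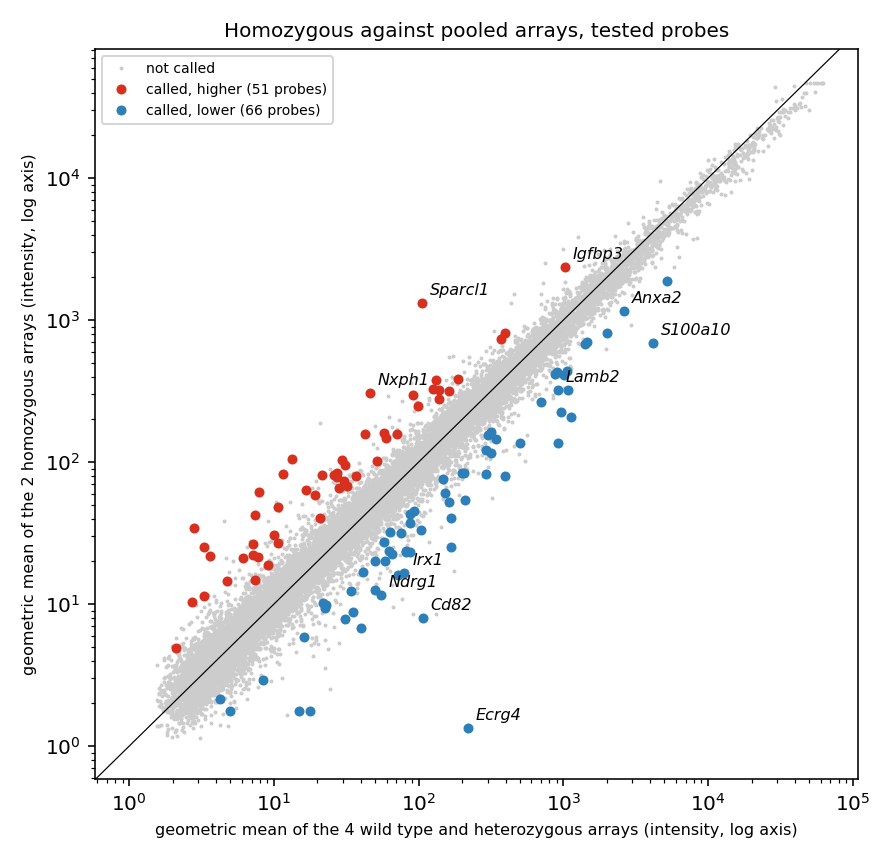
Each point is 1 of 20434 probes, with its geometric mean intensity over the 4 wild-type and heterozygous arrays on the horizontal axis and over the 2 homozygous arrays on the vertical axis, both logarithmic; red points are the 51 probes that rose and blue points the 66 that fell by limma's adjusted p, and the line marks equal values. Ecrg4 lies farthest from the line, and at the bright end most points sit a little below it, where the highest homozygous values are 46976 and 47257.

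The range rule by itself is loose. On all tested probes it took 29.4%, with 16.2% above and 13.2% below the other arrays. The counts of each gene list below stand against these shares and the 0.573% that passed limma's test. The median gap between the nearest homozygous array and the nearest other was only 0.14 on the log2 scale, or 1.10-fold. The gap was under 0.1 for 2252 members and at least 1 for 108, of which 48 were higher and 60 lower. Members differed by a median of 0.43 log2 units in either direction, against 0.22 over all tested probes, and 509 differed over 2-fold. All 6 arrays exceeded the olfactory level for 3025 members, while 2368 lay below it throughout. The smallest gap is illustrated by Rab35, a small GTPase gene, which read 265.2 to 325.7 on the pooled arrays and 325.8 and 336.2 on the homozygous arrays, and by Naxe, a metabolite repair enzyme gene, with 3363 to 3914 and then 3362 and 2778. Just outside stood the histone gene H4c1 and the transcription factor subunit gene Taf4b, each with a homozygous value equal to the highest pooled one (161.4 and 87.5).

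The direction of the weak members depends on how the arrays are centred. As deposited, 3317 members were higher and 2698 lower, and after centring each array on the median of tested probes the rule took 2712 higher and 3542 lower, of which 5191 were members before. The direction also moved with brightness. Of the 13203 probes with a mean under 100, 16.6% were higher and 8.6% lower, and of the 225 probes with a mean of 10000 or more, 3.11% were higher and 54.2% lower, with a median difference of -0.25. The highest value on an array was 46976 and 47257 in homozygous and between 58268 and 69523 on the others. Quantile normalization and cyclic loess act on such a trend, and a few bright genes were read under both. The log2 difference of S100a10 was -2.48 under either, against -2.59 as deposited, that of Anxa2 -1.11 and -1.08 against -1.18, and that of Igfbp3 1.29 and 1.28 against 1.20, and all stayed past the threshold. Ldha, which did not pass, had -0.61 under either against -0.83.

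**Figure D2:**
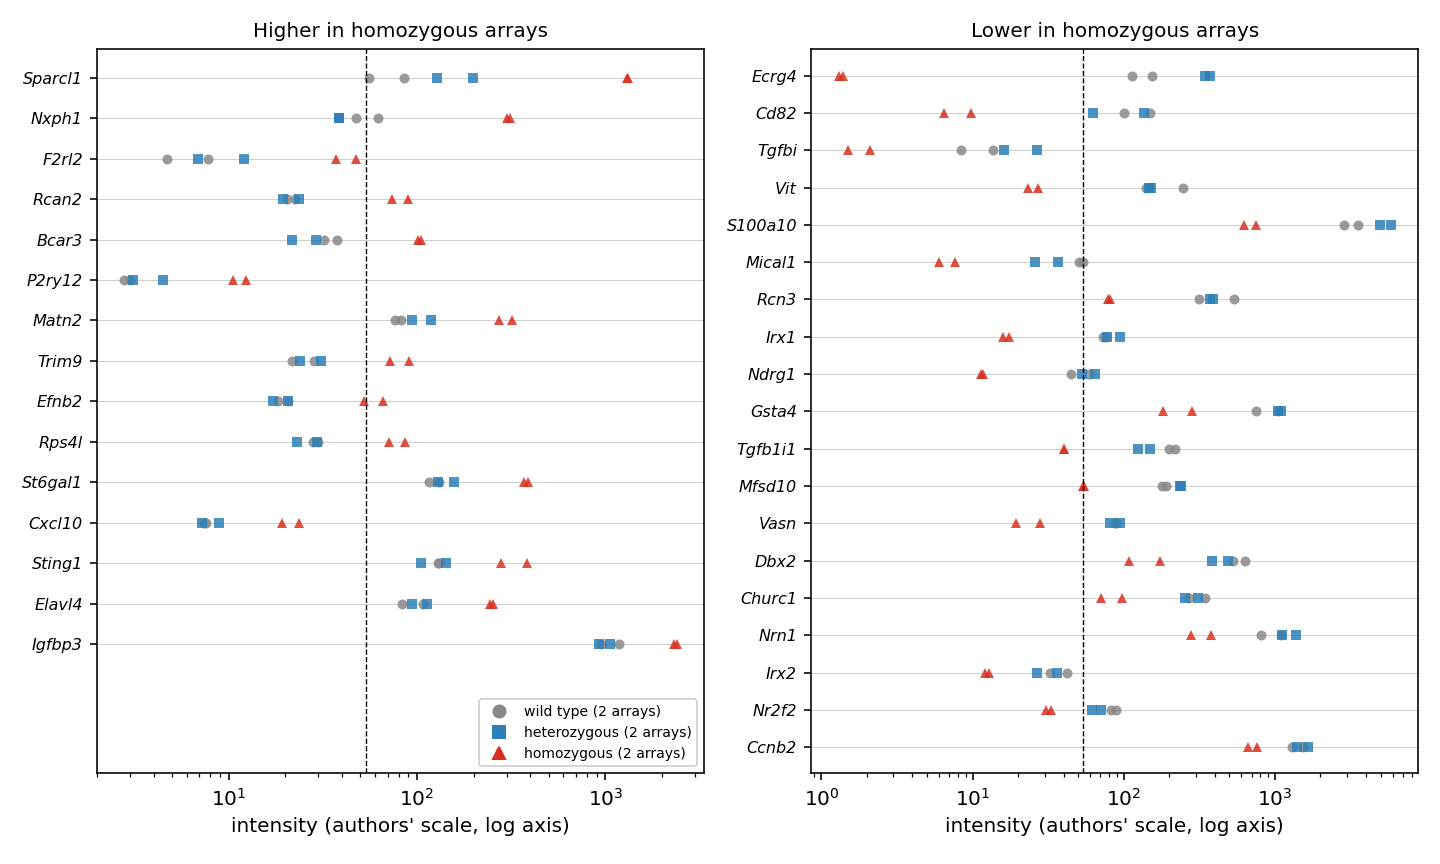
Intensity on a logarithmic axis for each of the 34 named genes, 15 higher (left) and 19 lower (right) in the homozygous arrays, with 1 symbol per array and the olfactory receptor level of 53.8 as a dashed line. In every row the triangles of the homozygous arrays stand clear of the circles and squares of the other 4.

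Named genes of secreted and matrix proteins stood on both sides. Sparcl1, a secreted glycoprotein of astrocytes that acts on matrix and synapses, read 55.9 and 85 in wild type, 128.4 and 198.3 in heterozygous, and 1325 and 1301 in homozygous. It rose 12.5-fold (95% interval 5.91 to 26.5, adjusted p = 0.0314), and it is also one of 3 changed probes on which the heterozygous and wild-type means differed by over 1 log2 unit, here by 1.21. Matn2, a matrilin that links matrix filaments, rose from between 76.4 and 118.4 to 271.7 and 319.9, a log2 difference of 1.69 ± 0.21 (adjusted p = 0.0283). Igfbp3, a secreted carrier of insulin-like growth factors that p53 can induce, was the brightest of the named genes that rose: it read 1180.0 and 951.2 in wild type, 1063 and 922.0 in heterozygous, and 2318 and 2393 in homozygous (2.3-fold, interval 1.79 to 2.95, adjusted p = 0.0315). Sparc, the close relative of Sparcl1, read 1222 to 2094 on the pooled arrays and 2710 and 3325 in homozygous, but its difference of 1.0 ± 0.24 missed the threshold (adjusted p = 0.127).

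Vit, the gene of the matrix protein vitrin, fell the most among named matrix genes above the dim level. It read 139.9 and 246.9 in wild type, 147.9 and 150.5 in heterozygous, and 23.3 and 26.9 in homozygous, which makes it at least 3.09-fold lower (measured difference -2.73 ± 0.25, adjusted p = 0.0139). Tgfbi, a matrix protein induced by TGF-beta, read 8.4 to 26.5 and then 2.1 and 1.5, all of it in the dim range. Lamb2, the laminin beta 2 chain of basement membranes and named after its values were seen, read 859.9 to 993.4 on the pooled arrays and 339.1 and 307.3 in homozygous (-1.51 ± 0.14, adjusted p = 0.0139). In the list of basement membrane and matrix genes as a whole, 1 of 29 measured genes rose and 3 fell. Above the other arrays lay 7 and below them 9, with a median difference of -0.16 against 0.03 over all tested probes. Those outside the range were 55.2% of the list. Over all tested probes 0.573% passed, 16.2% lay above and 13.2% below. In the list, 12 of the 29 genes were dim on all arrays. Its members thus stood on both sides, as with Sparcl1 and Vit.

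Nxph1, a secreted ligand of alpha-neurexins, showed the next widest separation among the named genes that rose. It read 62.5 and 47.3 in wild type, 38.4 and 38.8 in heterozygous, and 312.2 and 302.1 in homozygous (6.7-fold, interval 4.66 to 9.63, adjusted p = 0.00893). It was the single gene of 14 in the list of neurexins and their ligands that passed the test. Of the 14, 5 lay above the other arrays and 0 below, with a median of -0.04. These 5 are 35.7% of the list, near the 29.4% of all tested probes outside the range. Dim on all arrays were 8 of the 14. Those above were 2 under median centring and 3 under quantile normalization or cyclic loess. Elavl4, which encodes a neuronal RNA-binding protein, read 83.0 to 113.6 and then 254.6 and 244.3 (1.33 ± 0.17, adjusted p = 0.0309). Trim9, a ubiquitin ligase of axons, rose from between 21.8 and 30.9 to 90.4 and 72.3 and was at least 1.5-fold higher. Of 16 measured neuronal markers, Elavl4 alone passed the test, and 6 lay above the other arrays and 0 below; 12 of the 16 were under the olfactory level on all arrays, and quantile normalization gave 5 above and 1 below. The summed level of the list was 2206 to 5489 on the pooled arrays and 5468 and 5571 on the homozygous arrays. Most of that sum is the growth cone gene Gap43 (1758 to 5139, then 4809 and 4796). Scg2, a granule protein gene, and Ina, an intermediate filament gene of neurons, are among the 6 above: Ina read 33.9 to 70.2 and then 137.1 and 130.3 (1.48 ± 0.35, adjusted p = 0.127). Nrn1, a membrane-anchored protein that promotes neurite growth, went the other way, from between 805.8 and 1385 to 380.3 and 277.0 (-1.74 ± 0.24, adjusted p = 0.0433).

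The other named genes that rose include signalling and cell surface genes. Rcan2, an inhibitor of the phosphatase calcineurin, read 19.5 to 23.8 on the pooled arrays and 73.5 and 89.3 in homozygous, at least 1.51-fold higher. Bcar3, an adaptor of integrin signalling, read 21.6 to 37.7 and then 101.5 and 104.9, at least 1.92-fold higher. Efnb2, a membrane ligand of Eph receptors, read 17.3 to 20.8 and then 52.6 and 66.1, at least 1.10-fold higher. For each of these the pooled arrays sat under the olfactory level and the measured folds of 3.77, 3.5 and 3.07 are larger than the bounds. St6gal1, which adds sialic acid to glycoproteins, was well measured on both sides: it read 116.2 to 156.6 and then 387.4 and 369.7 (1.51 ± 0.16, adjusted p = 0.0204). Rps4l is a near copy of a ribosomal protein gene and its reading may include related transcripts, which was not tested: 23.0 to 29.9 became 86.9 and 71.4.

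Among genes of innate immunity, Sting1, the sensor adaptor downstream of cytosolic DNA, rose from 130.0 and 131.0 in wild type and 104.6 and 142.8 in heterozygous to 281.0 and 386.0 in homozygous (1.38 ± 0.19, adjusted p = 0.0433). Cxcl10, an interferon-induced chemokine, read 7.2 to 8.9 and then 19.3 and 23.8, below the olfactory level on all arrays. It was the single gene of 21 in the Toll-like receptor and NF-kB list to pass. In the interferon-inducible list 0 of 20 passed by limma, with 5 above and 4 below the other arrays and a median of 0.16, and 3 on either side under quantile normalization. P2ry12, a microglial purine receptor, passed with readings of 2.8 to 4.5 and then 12.4 and 10.6, again dim throughout; 9 of 10 measured microglial markers were below the olfactory level on all arrays and none was above it on all, and their sum was 192.7 to 226.7 on the pooled arrays and 238.5 and 260.2 on the homozygous arrays. F2rl2, a thrombin receptor gene, read 4.7 to 12.1 and then 37.4 and 47.6, also dim, and was the single gene of 17 in the list of prohormone processing and thrombin receptors to pass.

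Among named genes above the olfactory level on all 6 arrays, the largest fall was that of S100a10, the S100 family protein that pairs with annexin A2 at the cell membrane. It read 2874 and 3531 in wild type, 5835 and 4941 in heterozygous, and 626.7 and 752.9 in homozygous (6.02-fold lower, interval 3.72 to 9.73, adjusted p = 0.0247). The lowest pooled array was 3.82 times the higher homozygous one. Its partner gene Anxa2 and the relative S100a11, both named after their values were seen, changed in the same direction: Anxa2 read 2237 to 2942 and then 1104 and 1202 (-1.18 ± 0.15, adjusted p = 0.0359), and S100a11 read 859.0 to 1262 and then 418.3 and 399.6 (-1.30 ± 0.19, adjusted p = 0.0458). A list of annexin and S100 genes with the plasminogen activator genes was drawn up after these calls. Of its 23 measured genes 3 fell, which are these same calls, and 0 rose. As deposited, 7 lay below the other arrays and 0 above, with a median of -0.59. The 7 below are 30.4% of the list, while 13.2% of all tested probes lay below and 29.4% on either side. Quantile normalization and cyclic loess put 8 below and 1 above. S100a4 and S100a13 were among the 7, while Anxa5 read 392.8 to 910.9 and then 811.7 and 739.7, inside the pooled range.

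Cd82, a tetraspanin of the cell surface that restrains migration, read 101.0 and 149.4 in wild type, 136.3 and 62.7 in heterozygous, and 6.5 and 9.7 in homozygous, at least 1.98-fold lower (measured difference -3.75 ± 0.37, adjusted p = 0.0175). Rcn3, a calcium-binding protein of the secretory pathway, fell from between 313.2 and 538.0 to 78.1 and 80.6 (-2.31 ± 0.22, adjusted p = 0.0156). Gsta4, a glutathione transferase that clears lipid aldehydes, fell from between 749.2 and 1092 to 281.0 and 181.2 (-2.11 ± 0.24, adjusted p = 0.0246). Mfsd10, a transporter gene, read 179.4 to 237.8 and then 54.5 and 53.9, and Churc1, a zinc-binding regulator of early neural development, read 254.2 to 343.9 and then 70.5 and 97.7. Mical1, which oxidises actin, fell from between 25.9 and 53.7 to 7.7 and 6.0, all dim.

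A pair of genes tied to TGF-beta by their known function were among those that fell. Vasn, a membrane protein that binds TGF-beta, read 81.2 to 93.8 and then 19.3 and 28.1, at least 1.63-fold lower. Tgfb1i1, a focal adhesion protein induced by TGF-beta, read 200.7 and 217.1 in wild type, 148.3 and 123.7 in heterozygous, and 40.2 on both homozygous arrays, at least 3.12-fold lower (measured difference -2.06 ± 0.25, adjusted p = 0.0278). In the Notch, BMP and TGF-beta list, which holds Tgfbi but neither of these, 1 of 28 fell and 0 rose, and 6 lay above and 2 below the other arrays as deposited, but 6 above and 7 below under median centring, quantile normalization or cyclic loess. Notch1, the receptor, is one of those below as deposited, at 367.1 to 399.0 and then 224.6 and 217.2 (-0.78 ± 0.12, adjusted p = 0.0532). The contractile and actin list had 1 of 22 that fell, Mical1, with 3 above and 8 below; the muscle actin gene Acta2 read 1230 and 894.8 in wild type, 277.5 and 284.6 in heterozygous, and 88.0 and 118.5 in homozygous, so its pooled side was itself divided and its difference of -2.41 ± 0.65 missed the threshold (adjusted p = 0.151). Markers of pericytes and smooth muscle, a list of 11 genes with 8 dim on all arrays and Acta2 the largest in wild type, summed to 473.4 to 1439 on the pooled arrays and 270.6 and 319.2 on the homozygous arrays, and their part in these results was not tested. On bulk arrays fewer cells of a type and less RNA per cell cannot be told apart.

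Among transcription factors that set position along the neural axis, 4 named genes fell. Irx1, an Iroquois homeobox gene, read 73.0 and 75.8 in wild type, 94.1 and 77.8 in heterozygous, and 17.5 and 15.9 in homozygous, at least 1.48-fold lower (measured difference -2.26 ± 0.15, adjusted p = 0.00574). Irx2, its neighbour in the same cluster, read 26.6 to 41.9 and then 12.8 and 12.1, dim on all arrays, and Irx5 read 168.6 to 201.5 and then 95.8 and 95.1 without passing (-0.91 ± 0.14, adjusted p = 0.0501). In the hindbrain and spinal cord list 2 of 18 measured genes fell and 0 rose, with 1 above and 6 below the other arrays and 13 dim throughout. Dbx2, which marks a middle band of the neural tube, read 531.0 and 632.4 in wild type, 384.1 and 487.9 in heterozygous, and 173.4 and 108.9 in homozygous (-1.87 ± 0.26, adjusted p = 0.0433). Nr2f2, an orphan nuclear receptor of caudal and ventral forebrain, read 62.1 to 88.4 and then 30.4 and 32.8, at least 1.39-fold lower. Nr2f2 was the one gene of 19 in the forebrain list to pass, with 4 above and 2 below; Emx2, a gene of dorsal forebrain, read 16 to 24.9 and then 53.9 and 49.1 (1.32 ± 0.20, adjusted p = 0.0517). Dmrta2 gave 102.9 and 147.4, then 32.4 and 28.4, then 301.2 and 282.1, so it lay outside the range although its pooled arrays were far apart.

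The glycolysis and hypoxia lists had the medians farthest from 0 of the 28 lists. Of 21 measured glycolysis genes, 0 passed limma's test in either direction, 10 lay below and 2 above the other arrays, and the median difference was -0.77. Of 20 hypoxia-induced genes, Ndrg1 alone passed, 13 lay below and 1 above, and the median was -0.81. Ndrg1, a stress-responsive protein of growth arrest, read 44.6 and 59.1 in wild type, 52.6 and 64.2 in heterozygous, and 11.7 and 11.4 in homozygous (-2.24 ± 0.18, adjusted p = 0.00893), although with the dim side at the olfactory level the bound is only 1.01-fold. Among the bright members, Slc16a3, a lactate exporter, read 358.7 to 800.5 and then 147.6 and 165.6 (-1.84 ± 0.30, adjusted p = 0.0541). Pdk1, a kinase that inhibits pyruvate dehydrogenase, read 233.7 to 557.5 and then 145.6 and 102.1 (-1.72 ± 0.38, adjusted p = 0.111). The enzyme genes Tpi1 (6441 to 8806, then 4111 and 3334), Ldha (17655 to 23252, then 11686 and 11023) and Hk2 (240.3 to 388.4, then 129.9 and 142.9) were each below all pooled arrays, with adjusted p of 0.058, 0.0796 and 0.0967. Slc2a1, the glucose importer, read 332.8 to 572.9 and then 217.0 and 226.9.

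Many glycolysis genes are in the bright range in which most probes were lower. With quantile normalization the list's median was -0.53 and with cyclic loess -0.56, while 10 genes lay below and 2 above under either. The hypoxia list, which is mostly of moderate brightness, had medians of -0.79 and -0.80 and kept counts of 13 and 1. Adm, the gene of the vasodilator peptide adrenomedullin and a member of the hypoxia list, went against the rest: it read 584.0 to 910.7 on the pooled arrays and 1839 and 1835 in homozygous (1.35 ± 0.22, adjusted p = 0.0557). Of 36 genes of both lists with a promoter window, 21 held ACGTG (58.3%), against 22.7% of all genes. The hypoxia list was drawn up from genes known to respond to low oxygen and the glycolysis list from the genes of that pathway. This share therefore describes the lists and not the arrays. TGANTCA was held by 7 of the 26 named genes that rose and have a window (26.9%). It was held by 4 of 37 of those that fell (10.8%), against 6.47% of all genes. For ACGTG the counts were 6 (23.1%) and 12 (32.4%), against 22.7%, and for GGAATG 2 (7.69%) and 5 (13.5%), against 13%. The interferon response element was held by 1 and 2. These motifs were chosen after the calls were known. The 7 with TGANTCA are Cxcl10, F2rl2, Prdm1, Rcan2, Slc6a17, St6gal1 and Tmem37. Of them Cxcl10, F2rl2, Prdm1 and Slc6a17 were dim on all 6 arrays.

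**Figure D3:**
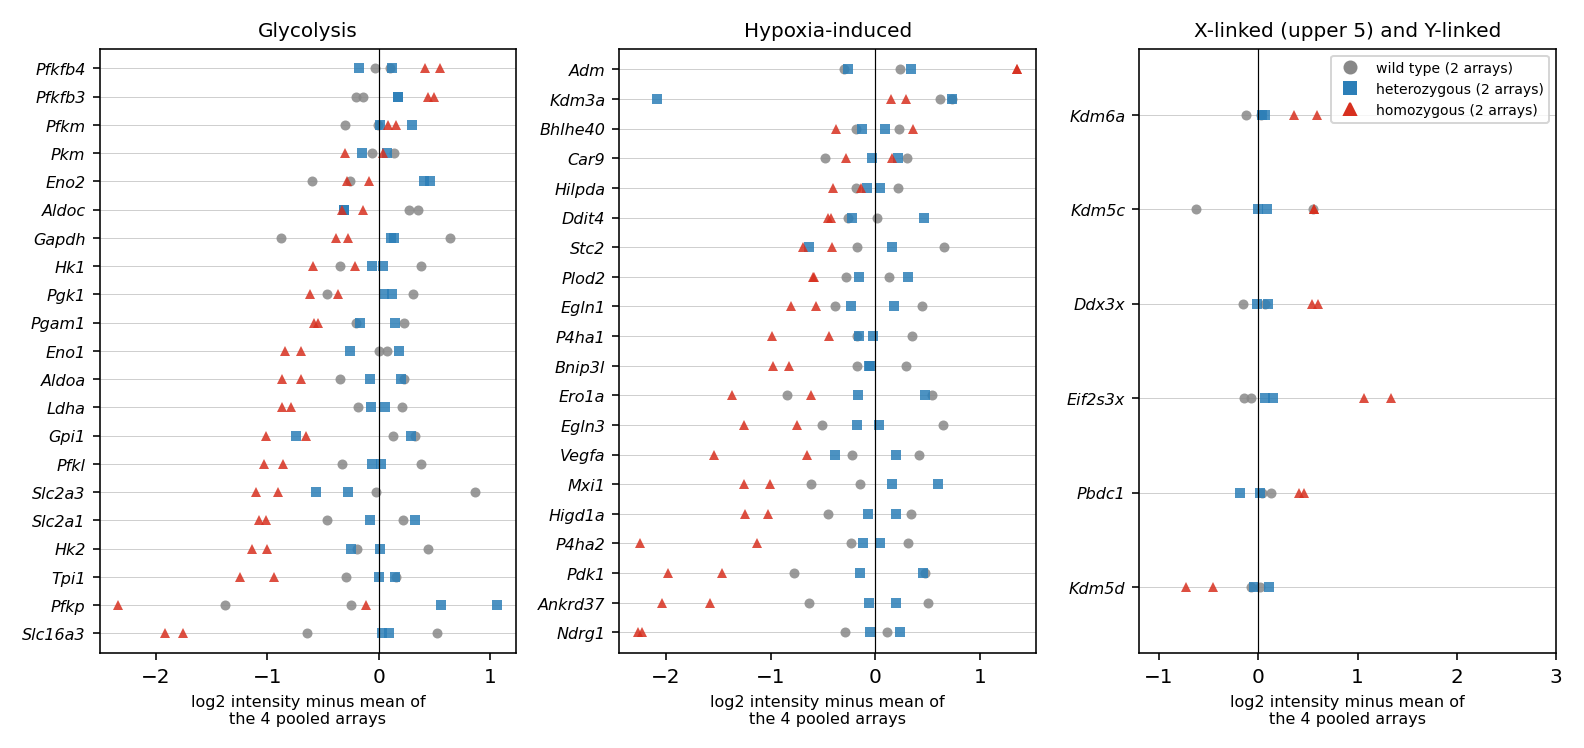
For each gene, the log2 intensity of each array minus the mean of the 4 pooled arrays, for the glycolysis list (left), the hypoxia-induced list (middle) and 5 X-linked genes with 1 Y-linked gene (right), with 1 symbol per array. Most homozygous triangles of the first and second panels lie left of zero with Adm far to the right, and in the third panel they lie to the right for the X-linked genes and to the left for Kdm5d.

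Few genes of the cell cycle lists passed the test. Ccnb2, a mitotic cyclin, read 1298 and 1521 in wild type, 1650.0 and 1409 in heterozygous, and 755.2 and 658.3 in homozygous (-1.05 ± 0.15, adjusted p = 0.0475). It was the one gene of 28 in the mitosis list to pass, with 8 below and 2 above and a median of -0.13, which came to 6, 1 and -0.05 with quantile normalization and to 10, 1 and -0.17 with median centring. Cdkn3, a phosphatase of cyclin-dependent kinases named after its values were seen, fell from between 300.4 and 329.2 to 152.1 and 172.1 (-0.96). In the DNA replication list 0 of 29 passed by limma, 4 lay above and 0 below, and the median was 0.07; under quantile normalization or cyclic loess 8 lay above, with medians of 0.13 and 0.14. Ccnd2, a cyclin driven by growth factors, read 5818 and 6042 in wild type, 3731 and 3709 in heterozygous, and 9966 and 9232 in homozygous (1.03 ± 0.25, adjusted p = 0.131). Of 22 genes of mitogen receptors and their feedback, 0 passed, with 6 above and 1 below and a median of 0.26, and 0 below under quantile normalization.

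In the p53 and senescence list Igfbp3 alone of 22 passed, with 7 above and 3 below the other arrays. Mdm2, the ligase that p53 induces and that degrades it, read 231.9 to 262.6 and then 408.8 and 438.2 (0.76 ± 0.13, adjusted p = 0.0659), and Trp53inp1, another p53 target, read 432.7 to 532.2 and then 703.6 and 711.1 (0.60 ± 0.14, adjusted p = 0.129). Igfbp5 and Igfbp7, relatives of Igfbp3, lay on the other side: Igfbp5 read 153.5 to 280.9 and then 95.5 and 93.9 (-1.14 ± 0.25, adjusted p = 0.111). No gene passed in the lists of stress response and mTOR inhibitors (21 genes, median -0.00), fatty acid and cholesterol synthesis (26, 0.08), G protein subunits (12, -0.16) or the imprinted growth network (13, -0.17). Mest, an imprinted gene, lay above the range at 2484 and 2600, but its pooled arrays split into 1381 and 1493 in wild type and 415.4 and 363.5 in heterozygous.

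**Figure D4:**
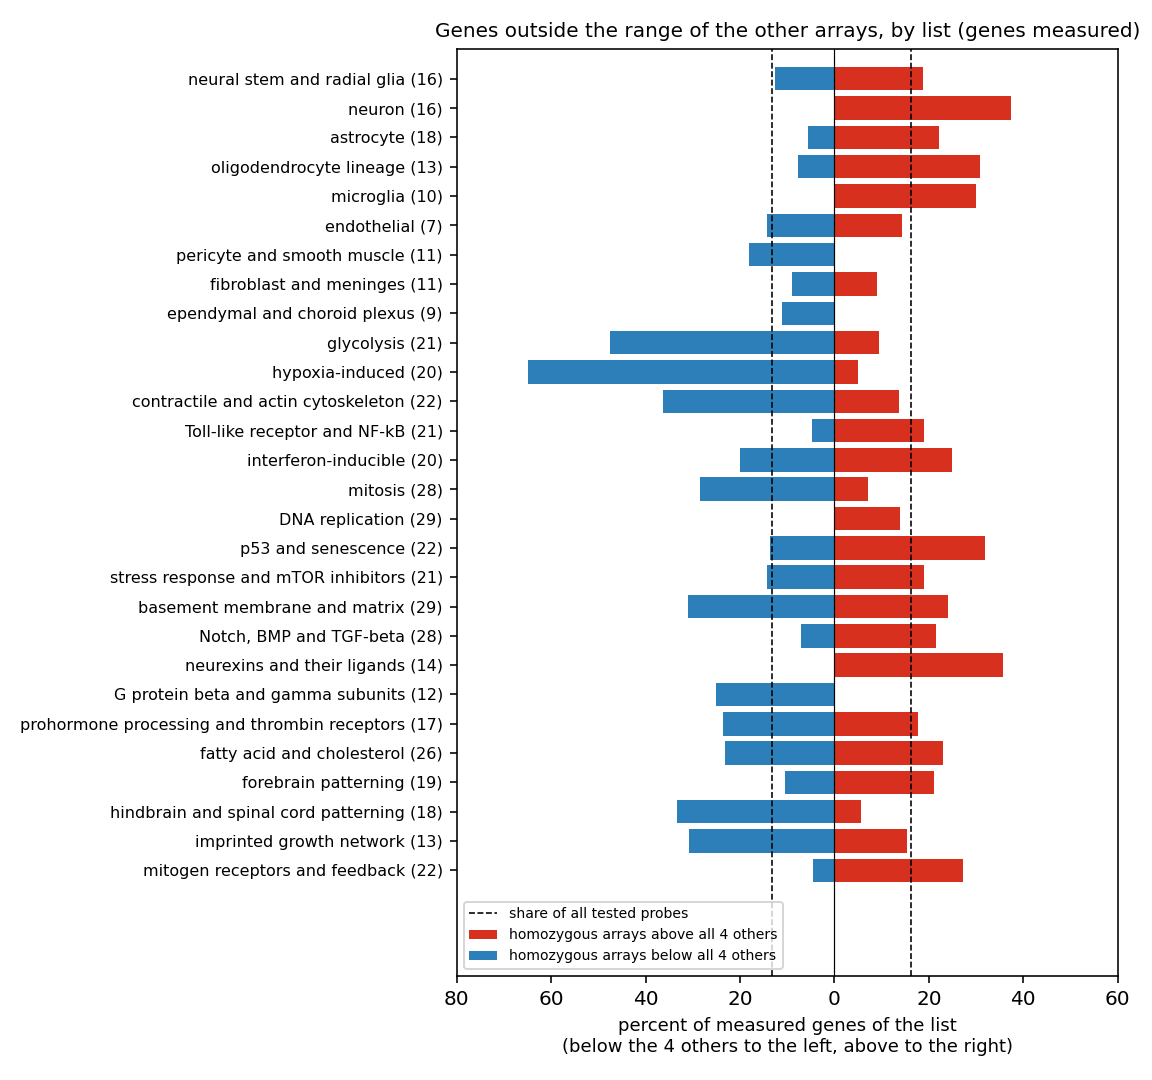
Percent of the measured genes of each of 28 lists whose homozygous values lay below (blue, to the left) or above (red, to the right) all 4 other arrays, with the number of measured genes in brackets and dashed lines at 13.2% and 16.2%, the shares of all tested probes. The hypoxia and glycolysis bars reach farthest to the left, at 13 of 20 and 10 of 21 genes.

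Some genes of the sex chromosomes stood apart between the sides. Of 6 X-linked genes that can escape inactivation, chosen after the data were seen, 5 were measured and all 5 lay above the other arrays as deposited, 4 of them under quantile normalization. Eif2s3x, an initiation factor gene, read 132.6 and 126.1 in wild type, 146.2 and 154.4 in heterozygous, and 351.5 and 292.1 in homozygous, and passed the test (1.20 ± 0.15, adjusted p = 0.0344). Ddx3x read 976.9 to 1167 and then 1647 and 1584, Kdm6a 146.6 to 167.4 and then 205.6 and 241.6, and Pbdc1 769.0 to 951.2 and then 1159 and 1199, with adjusted p of 0.130, 0.178 and 0.213. Kdm5c, the remaining one, was dim on all 6 arrays, at 5 to 11.3 and then 11.4 on both homozygous arrays. Kdm5d, the one measured gene of the Y-linked list, read 107.3 to 121.7 and then 68.1 and 82.5 (-0.59 ± 0.14, adjusted p = 0.131). It exceeded the olfactory level on all 6 arrays. The part of the sex of the cells in the results above was not tested, and with 2 homozygous arrays that both show these values it cannot be told apart from genotype.

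Markers of other cell types gave few calls. Sparcl1 was the one of 18 astrocyte markers to pass, and 4 lay above the other arrays and 1, Cst3, below. Under median centring 3 lay on either side. The list as a whole had a median of -0.22. Its summed levels were 22557 to 24188 on the pooled arrays and 18420 and 19181 on the homozygous arrays. Cst3 is a bright part of that sum, at 4917 to 7844 and then 2770 and 2799. None of 13 markers of the oligodendrocyte lineage, 7 of endothelium, 11 of fibroblasts and meninges or 9 of ependyma and choroid plexus passed limma's test. Their summed levels were 10739 to 14037 and then 12807 and 15078, 300.4 to 481.4 and then 206.3 and 230.0, 12549 to 17214 and then 15167 and 15497, and 400.7 to 474.5 and then 392.1 and 424.2. The fibroblast sum is nearly all Igfbp2 (12218 to 17003, then 15254 and 14940.0). Among stem cell markers Nes, an intermediate filament gene, read 752.6 to 1014 and then 1238 and 1311, while Hopx read 424.9 to 502.1 and then 311.5 and 288.9, neither past the threshold.

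The named genes can also be set against each pooled genotype by itself. The range rule fixes the direction of these differences and they share the homozygous arrays, so they are given side by side only. For S100a10 the homozygous mean was -2.21 log2 units from wild type and -2.97 from heterozygous, for Sparcl1 4.25 and 3.04, and for Nxph1 2.50 and 2.99. Igfbp3 stood at 1.15 and 1.25, Irx1 at -2.16 and -2.36, Vit at -2.89 and -2.58, and Ndrg1 at -2.15 and -2.33. The pooled arrays were close together for most of the 117 changed probes: their heterozygous and wild-type means differed by a median of 0.17 log2 units, against 0.22 over all tested probes, and a test that sets 2 arrays against 4 favours such probes. Of the 6015 members, 118 had a heterozygous to wild-type difference over 1 log2 unit, against 562 of all tested probes. With 2 arrays among 6, an exact permutation test of a single gene has 15 arrangements and a smallest one-sided p of 0.0667, so the calls rest on limma's shared estimate of the spread.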

How the data were processed

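Intensities from 6 one-colour arrays were analysed. The authors deposited them as linear intensity values, which each had a median of 30 per array and were read as scaled by the authors to a common median. Per the labels' protocols, RNA from RNeasy columns was amplified as amino allyl aRNA and dye-coupled, while another label field names biotin. The scanner, the background correction and the rule behind blank cells are not given in the labels.

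Log2 intensities, without a pseudocount, of the 20434 probes measured on all 6 arrays were fitted with limma 3.58.1 in R 4.3.3, with 1 coefficient for homozygous against the pooled 4 arrays. Residual degrees of freedom were 4, with a prior of 3.06. Tests were two-sided, with Benjamini-Hochberg adjustment over all tested probes and a threshold of 0.05. Errors are standard errors and intervals are 95% intervals of this fit, unadjusted for the number of probes. The script was tested on simulated data. The 3032 probes with a blank cell were not tested.

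Where a side lay under the olfactory receptor percentile on every array, it was set at that level for a bound, which makes no allowance for spread. Of 23466 probes, 16625 carry 1 symbol in the platform annotation and 6841 are unnamed here; 3943 symbols were updated through a RefSeq gene table of GRCm38.p6, 59 that matched several genes and 3 without a match were kept. Lists use 1 probe per gene. The members and the gene lists were chosen with earlier results of these data known. The rule for naming genes took Ecrg4, then among changed probes with a usual gene symbol the 10 highest and 10 lowest differences with every array of the brighter side above the olfactory level, the 6 per direction with all 6 arrays above it, the 6 per direction with the widest gap, and up to 3 changed members per list. Alternatives covered centring, normalization, dim probes, blank cells, pseudocounts, variance settings, genotype coefficients, a replicate block and leaving out each array.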

Additional observations from a re-analysis of the deposited data

Results flagged for a closer look

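On the 4 pooled arrays, 1 array stood apart from the other 3 for 2 of the 34 named genes, with a gap to the nearest array, as a share of the whole range on the log2 scale, above Dixon's 95% critical value. For Gsta4 the share was 0.870, and wild-type array 1 read 749.2 against 1040 to 1092 on the others. For Vit it was 0.871, and wild-type array 2 read 246.9 against 139.9 to 150.5. Chance flags about 1 in 20 such groups. For both genes the homozygous arrays lay below all 4.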

How the results depend on the processing

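The count of 117 changed probes moved with most settings. It was 507 (246 higher, 261 lower) with 1 coefficient per genotype, 1215 with array weights, 439 with an intensity trend and robust prior, 344 with dim probes left out, 193 with median centring, 184 with quantile normalization, 182 with cyclic loess, 554 and 547 with pseudocounts of 16 and 50, and 63 with blank cells filled. Leaving out 1 array gave 0 to 343, with 0 when either homozygous array was left out, so the calls need both. Same-numbered arrays did not deviate together (r = 0.016, 0.010 and -0.076), so the numbers are not taken to pair the arrays, and a replicate block gave 18 (7 higher, 11 lower). The cause of these shifts was not tested. The 6015 probes outside the range became 3315 with dim probes left out, 3025 with all 6 arrays above the olfactory level (chosen after seeing the data), 108 with a gap of at least 1, and 7014 to 9754 with 1 array left out. All 34 named genes kept their sign in 563 alternative values, 0 reversed. They were chosen as called and outside the range, which makes a reversal unlikely, so the kept sign is no separate evidence. The 34 passed with 1 coefficient per genotype, array weights, trend and robust prior, median centring, quantile normalization, cyclic loess and without wild-type array 1. Of them 25 passed with blank cells filled, 33 and 30 with the pseudocounts, 19 of 19 tested with dim probes left out, 8 with the replicate block, 8 and 19 without heterozygous arrays 1 and 2, 9 without wild-type array 2 and 0 without either homozygous array. Of 475 list medians under alternatives, 10 moved by more than the spread. Levels under the olfactory receptor percentile limit what the folds of dim genes can show.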

Other observations

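The genes beside Ecrg4 on chromosome 1 were read as a description of its surroundings. Of the 10 tested named genes on each side in the order of the gene table, 0 of 20 passed limma's test. Outside the range of the pooled arrays lay 7. Over all tested probes 0.573% passed and 29.4% lay outside, so neither count sets these genes apart. The median difference of the 20 genes was 0.00. The farthest was Gulp1, an adaptor of engulfment, which read 12.8 to 26.5 on the pooled arrays and 8.1 and 7.5 in homozygous (-1.23, adjusted p = 0.147). Pou3f3, a neural transcription factor gene, read 111.1 to 131.3 and then 173.5 and 183.8, and Col5a2, a fibrillar collagen gene, read 320.1 to 424.7 and then 208.3 and 226.2, with adjusted p of 0.130 and 0.115.

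Probes with a blank cell were outside the comparison. There were 20 with values on all 4 pooled arrays and blanks on both homozygous arrays, the highest at 13.6, and 43 with the reverse pattern, the highest at 5.9. None of these probes exceeded the olfactory level on the arrays that measured them. Probes with further blanks on the other side were not counted.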
